A study of Mus musculus with 6 samples.

Results

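The oxysterol-binding protein family comprises *Osbp*, the oxysterol-binding protein gene, and its relatives, whose proteins are called ORPs. Members were taken as the rows of the deposited expression table whose gene symbol is 1 of 10 listed names. Rows for 8 of them were found among 12603 rows with values, and *Osbpl6* and *Osbpl10* were not analysed here. A further 2 family genes with a row, *Osbp2* and *Osbpl7*, are outside the list and are described beside it. The family was put forward with values of this same comparison known, in which *Osbpl3* had drawn attention, so the differences of the family genes between the labelled groups are given as a description, with no p-value.

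ORPs carry a lipid-binding domain that holds a sterol or another lipid in exchange for the phosphoinositide PI4P, and many of them bridge the endoplasmic reticulum and a second membrane. A short motif in most of them docks on the VAP proteins of the endoplasmic reticulum. In the liver, which makes, exports and converts cholesterol, the family is known for moving sterols and phospholipids between organelles without vesicles.

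The data are polyadenylated RNA sequencing of livers of mice bearing established tumours of Hepa 1-6, a hepatoma cell line of the mouse, and all 6 libraries share that tumour model. By their labels, 3 libraries are wild type (WT) and 3 are AKR1D1KO (here KO), from mice lacking *Akr1d1*, whose enzyme reduces the A ring of bile acid precursors and steroid hormones. The sources used here do not give the form of the knockout allele, the strain, sex and age of the mice, whether a library is 1 animal, or whether the sampled tissue held tumour, so p-values measure only the spread between these libraries. Each deposited value reads as a ratio, a gene's expression in 1 library divided by that gene's mean, which no label states. The mean appears to span 7 libraries, and 1 of them is not analysed here. On this reading a value of 1 is the gene's own average, and the values say nothing of whether 1 gene is more abundant than another.

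*Akr1d1* itself stood higher, not lower, in the KO libraries, at 0.826, 0.697 and 0.881 in WT replicates 1 to 3 and 1.22, 1.21 and 1.35 in KO replicates 1 to 3, with every library labelled KO above every WT library (log2 change 0.60, SE 0.11, limma adjusted p = 0.17; two-sided exact permutation p = 0.1, the smallest that 3 against 3 allow). The RNA thus does not show the loss that the KO label names, and the form of the allele is not given. Whether the labels are right or the allele leaves a transcript was not tested. Each direction given here is between libraries as they were labelled. The total number of reads per library is unknown, so no counting error can be attached to a value. Of the hepatocyte markers, 7 of 8 were tested, among them *Apoa1*, *Ttr* and *Hnf4a*, and none was at 0 in any library.

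The start regions of 3 family genes are shown because their expression divides the family. *Osbpl3* and *Osbp2* are the family genes whose groups of libraries did not overlap, and *Osbp* is the founding member, with overlapping groups. Each stretch holds 300 bases, from 250 before to 50 after the RefSeq start, read 5′ to 3′ on the gene's own strand in GRCm38. For *Osbpl3* it is chr6:50456121-50456420 (minus strand), for *Osbp2* chr11:3863854-3864153 (minus strand, the outermost of 3 annotated starts) and for *Osbp* chr19:11965594-11965893 (plus strand). Capitals mark CCAAT and GGGCGG, the CCAAT box and the GC box, on either strand.
Osbpl3: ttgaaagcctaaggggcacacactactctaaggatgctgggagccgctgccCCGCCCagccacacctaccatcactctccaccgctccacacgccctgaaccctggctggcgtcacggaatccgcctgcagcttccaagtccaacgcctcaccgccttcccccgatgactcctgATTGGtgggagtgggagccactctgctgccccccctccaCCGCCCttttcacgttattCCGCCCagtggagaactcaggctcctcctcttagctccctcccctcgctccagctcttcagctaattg
Osbp2: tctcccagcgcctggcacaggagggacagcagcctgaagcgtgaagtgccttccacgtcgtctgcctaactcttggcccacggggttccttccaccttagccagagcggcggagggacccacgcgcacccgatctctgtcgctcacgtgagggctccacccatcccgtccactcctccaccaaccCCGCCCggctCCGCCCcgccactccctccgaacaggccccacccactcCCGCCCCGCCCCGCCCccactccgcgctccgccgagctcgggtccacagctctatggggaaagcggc
Osbp: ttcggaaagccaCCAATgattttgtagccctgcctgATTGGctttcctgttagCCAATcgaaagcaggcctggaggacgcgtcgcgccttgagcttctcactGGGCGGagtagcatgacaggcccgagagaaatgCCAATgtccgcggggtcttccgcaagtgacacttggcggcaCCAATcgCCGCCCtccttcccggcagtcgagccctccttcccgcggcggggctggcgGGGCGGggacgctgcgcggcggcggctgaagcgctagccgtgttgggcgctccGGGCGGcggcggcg

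The *Osbpl3* stretch held 1 CCAAT box and 3 GC boxes, that of *Osbp2* held 0 and 5, with GC boxes overlapping each other, and that of *Osbp* 5 and 4. A CCAAT box is found in 37.4% and a GC box in 35.7% of all 32851 start regions of that length. The searched letters TATAAA (13.6% of all regions), AGGTCA, a half-site of nuclear receptors (16.3%), TCACNCCAC, a sterol regulatory element (1.24%), and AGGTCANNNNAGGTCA, a direct repeat bound by LXR (0.0152%), were in none of these 3 windows on either strand. Different motifs did not overlap each other in them. G and C made up 62.0%, 70.3% and 67.0% of the bases for *Osbpl3*, *Osbp2* and *Osbp*, against a median of 52.7% over all regions.

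*Osbpl3* encodes ORP3, which binds VAP proteins and phosphoinositides and acts on cell adhesion through the small GTPase R-Ras. The gene lies on chromosome 6, from 50293330 to 50456201 on the minus strand. Its values were 0.428, 0.346 and 0.162 in WT replicates 1, 2 and 3. In KO replicates 1, 2 and 3 they were 1.85, 2.08 and 1.92. Every library labelled KO was high and every WT library low, and the lowest KO value was 4.33 times the highest WT value. The mean was 1.95 ± 0.117 in the libraries labelled KO and 0.312 ± 0.136 in the WT libraries (SD, n = 3 each), a ratio of 6.25. After adding 0.1 and taking log2, a scale that shrinks the change of low values, the difference was 2.37 (SE 0.26). The KO libraries differed little among themselves, with a coefficient of variation of 6.00%, while the WT libraries, led by the low value of WT replicate 3, had one of 43.7%. Without WT replicate 3 the ratio was 5.04.

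Among all 12578 rows tested, 24 had a larger log2 change toward the libraries labelled KO than *Osbpl3*, and 31 had a larger change in either direction. No family member passed the whole-table test (limma, Benjamini-Hochberg adjusted p under 0.05), which 0.0159% of rows passed, 2 in all and both higher in the libraries labelled KO. Groups of libraries did not overlap for 1 of the 8 members, *Osbpl3*. Of all rows tested, 8.86% had every library labelled KO above every WT library and 10.1% had every one below. Since the family was chosen on this comparison, nothing is read from these counts or from the whole-table result for its members. The log2 change of *Osbpl3* exceeded that of the next listed member, *Osbpl8*, by 2.00. Over all 8 members the median log2 change was 0.03, over the 7 members other than *Osbpl3* it was 0.01, and over all rows tested it was -0.004.

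**Figure D1:**
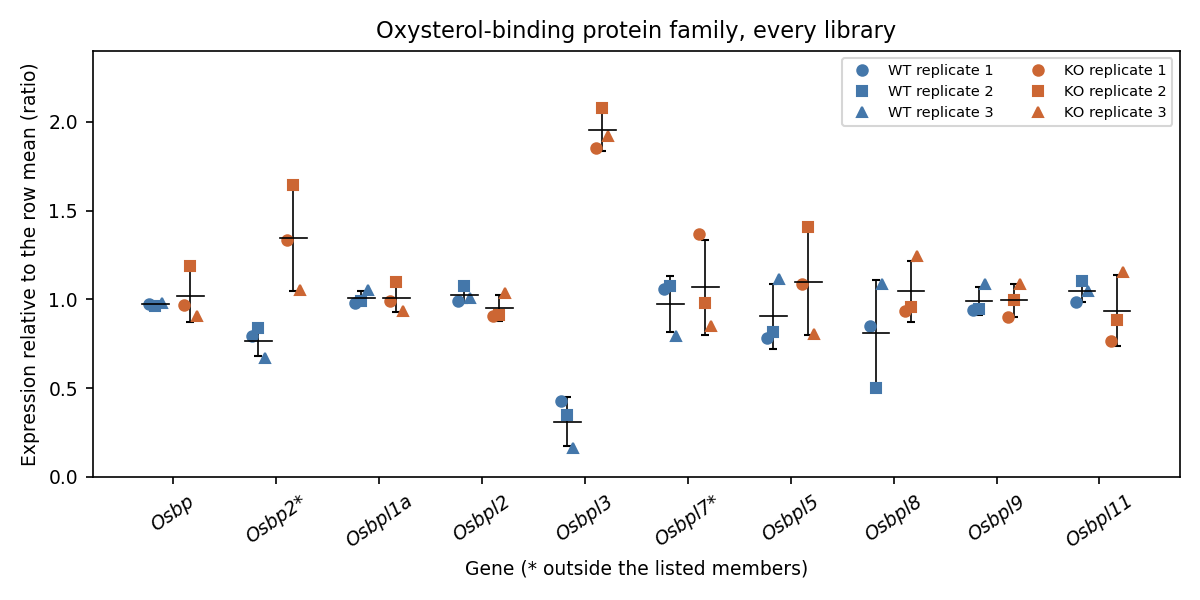
Expression of 10 family genes in every library, as the ratio to the gene's own mean (vertical axis). Points are libraries, horizontal bars are group means and vertical bars are SDs (n = 3 each), and an asterisk marks genes outside the listed members; *Osbpl3* stands at 1.85 to 2.08 in the libraries labelled KO and 0.162 to 0.428 in WT, and *Osbp2* also shows no overlap.

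*Osbpl7* is, with *Osbpl6*, the closest relative of *Osbpl3* by protein sequence. Its values were 1.06, 1.07 and 0.793 in WT replicates 1 to 3 and 1.37, 0.980 and 0.851 in KO replicates 1 to 3. The groups overlapped, with KO replicate 1 highest and WT replicate 3 lowest, and the ratio of means was 1.09 (log2 change 0.10, SE 0.20). *Osbpl7* therefore showed no separation like that of *Osbpl3*, and its log2 change was -0.07 without KO replicate 1 and 0.24 without KO replicate 3.

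*Osbp* encodes the founding member, which carries cholesterol from the endoplasmic reticulum to the Golgi in exchange for PI4P. Its values were 0.973, 0.965 and 0.982 in WT replicates 1 to 3, and 0.969, 1.19 and 0.905 in KO replicates 1 to 3. The WT libraries lay between KO replicate 3 and KO replicate 2, so the groups overlapped. The means were 0.973 ± 0.00867 in WT and 1.02 ± 0.147 in KO (SD, n = 3 each). Their ratio was 1.05 (log2 change 0.05, SE 0.11), and the log2 change was -0.05 without KO replicate 2 and 0.13 without KO replicate 3.

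*Osbp2* encodes ORP4, the nearest relative of OSBP, known for its need in the survival of certain proliferating and germ cells. Its values were 0.794, 0.839 and 0.669 in WT replicates 1 to 3. In KO replicates 1 to 3 they were 1.33, 1.64 and 1.05. Every library labelled KO lay above every WT library, with the lowest KO value 1.26 times the highest WT value. The means were 1.34 ± 0.294 and 0.768 ± 0.0880 (SD, n = 3 each), in KO and WT, and their ratio was 1.75 (log2 change 0.72, SE 0.17). *Osbpl3* was thus the only listed member without overlap but not the only family gene without overlap, and its log2 change exceeded that of *Osbp2* by 1.66.

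*Osbpl1a* and *Osbpl2* encode ORP1, whose long form sits on late endosomes and senses cholesterol there, and ORP2, a short family protein linked to the plasma membrane and lipid droplets. *Osbpl1a* had values of 0.981, 0.991 and 1.05 in WT replicates 1 to 3 and 0.992, 1.10 and 0.937 in KO replicates 1 to 3. Its group means were 1.01 each, at a ratio of 1.00 (log2 change -0.001, SE 0.09), and the groups overlapped. *Osbpl2* had values of 0.993, 1.08 and 1.01 in WT replicates 1 to 3 and 0.908, 0.913 and 1.04 in KO replicates 1 to 3. KO replicate 3 lay within the WT range, and the ratio of means was 0.927 (log2 change -0.10, SE 0.09). Without KO replicate 3 the *Osbpl2* groups no longer overlapped, and its log2 change was -0.16, and without WT replicate 2 it was -0.07.

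*Osbpl5* and *Osbpl8* encode ORP5 and ORP8, anchored in the endoplasmic reticulum by a membrane segment, which hand phosphatidylserine to the plasma membrane in exchange for PI4P. *Osbpl5* had values of 0.782, 0.817 and 1.11 in WT replicates 1 to 3 and 1.08, 1.41 and 0.806 in KO replicates 1 to 3. The groups overlapped widely, with a ratio of 1.22 (log2 change 0.24, SE 0.22). Its log2 change was 0.06 without KO replicate 2 and 0.15 without WT replicate 1, and 0.38 without WT replicate 3 and 0.43 without KO replicate 3. *Osbpl8* had values of 0.852, 0.500 and 1.09 in WT replicates 1 to 3 and 0.935, 0.959 and 1.24 in KO replicates 1 to 3. The groups overlapped, and WT replicate 2 was low against the other 5 libraries. Its ratio of means was 1.29 (log2 change 0.37, SE 0.27), and 1.08 without WT replicate 2, where the log2 change was 0.10. Without WT replicate 3 the *Osbpl8* groups did not overlap, and its log2 change was 0.59.

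*Osbpl9* and *Osbpl11* encode ORP9 and ORP11, which form a dimer at the Golgi and late endosomes. *Osbpl9* had values of 0.940, 0.947 and 1.08 in WT replicates 1 to 3 and 0.901, 0.998 and 1.09 in KO replicates 1 to 3, a ratio of 1.00 with overlapping groups (log2 change 0.01, SE 0.10). *Osbpl11* had values of 0.985, 1.10 and 1.05 in WT replicates 1 to 3 and 0.767, 0.882 and 1.16 in KO replicates 1 to 3. KO replicate 3 was its highest library and KO replicate 1 its lowest, so the groups overlapped, at a ratio of 0.894 (log2 change -0.16, SE 0.15). Without KO replicate 3 the *Osbpl11* groups did not overlap and its log2 change was -0.31, and without KO replicate 1 it was -0.04. Within the KO group, KO replicate 1 was lowest and KO replicate 3 highest for both partner genes. *Osbpl2* and *Osbpl8* had the same order, so it was not particular to the partners.

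The 42 values of the 7 members other than *Osbpl3* lay between 0.500 and 1.41, their ratios between 0.894 and 1.29, and 4 log2 changes were above and 3 below 0. The median size of their log2 change was 0.10, against 0.13 over all rows tested. KO replicate 2 was the highest library for 4 of the 8 members and KO replicate 3 for 3, while the lowest library was KO replicate 1 for 3 and KO replicate 3 for 2.

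**Figure D2:**
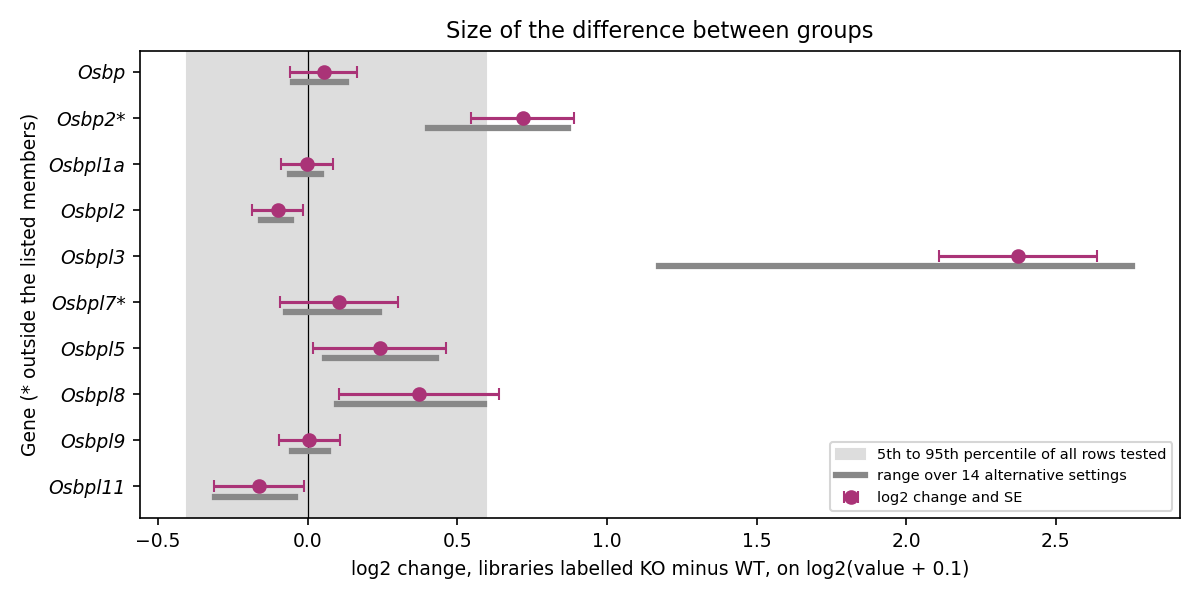
Log2 change of each family gene, libraries labelled KO minus WT, on the log2(value + 0.1) scale (horizontal axis), with SE as thin bars and the range over 14 alternative settings as thick grey bars. The shaded band, from -0.40 to 0.60, holds the 5th to 95th percentile of all rows tested; *Osbpl3* at 2.37 and *Osbp2* at 0.72 lie outside it.

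Some marker lists of other liver cells stood higher in the libraries labelled KO alongside *Osbpl3*. In these bulk samples more cells of a type and more RNA per cell cannot be told apart. For each list the mean ratio of its tested members was taken in each library. For the cholangiocyte list, 6 of 6 tested members had a positive log2 change, and its mean ratio ran from 0.648 to 0.853 in WT and from 0.890 to 1.42 in KO. The macrophage and Kupffer cell list had 8 of 8 positive, with 0.754 to 0.917 in WT and 1.07 to 1.32 in KO. The stellate cell and fibroblast list had 6 of 7 positive, with 0.827 to 0.959 in WT and 1.08 to 1.22 in KO. Every library labelled KO lay above every WT library for 2 of 6 cholangiocyte, 4 of 8 macrophage and 3 of 7 stellate members. The groups of the remaining members overlapped. Of all rows tested, 8.86% stood above in this way, and the median log2 change was -0.004. The hepatoma and fetal list, with 2 of 6 markers tested (*Gpc3* and *Top2a*), ran from 0.554 to 0.945 in WT and from 1.10 to 1.38 in KO. Each of these 2 genes on its own had overlapping groups, and *Gpc3* was highest in WT replicate 3. The T and NK cell list, with 4 of 7 tested and 3 positive, ran from 0.550 to 0.793 in WT and from 0.696 to 2.06 in KO, so its groups overlapped. The groups also overlapped for the endothelial (0.927 to 1.03 and 0.954 to 1.05), B cell (0.877 to 1.00 and 0.911 to 1.20), neutrophil (0.751 to 1.13 and 0.847 to 1.44) and hepatocyte (0.978 to 1.07 and 0.911 to 0.993) lists. Of the 7 hepatocyte members tested, 1 had a positive log2 change, and their median was -0.06. For 2 of them every library labelled KO lay below every WT library, as for 10.1% of all rows, and for none above. None of the tested markers was at 0 in any library and none passed the whole-table test. The part of these cells in the *Osbpl3* difference was not tested.

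Genes that work with the family were grouped in 6 lists by known function. Of 89 such genes tested, 0 passed at a limma adjusted p under 0.05, and 14 had an unadjusted p under 0.05, 6 of them higher and 8 lower in the libraries labelled KO. That unadjusted level was met by 12.0% of all rows. Groups did not overlap for 11 higher and 11 lower genes, 22 in all, beside 8.86% and 10.1% of all rows. The median log2 change was -0.01.

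For the partners of ORPs at membrane contact sites, none of the 15 tested had an unadjusted p under 0.05, and their log2 changes ran from -0.19 to 0.33 with a median of -0.03. *Mospd2*, a VAP-like docking protein of the endoplasmic reticulum, had a ratio of 1.27 and *Pdzd8*, a contact site lipid transfer protein, 1.12, both without overlap and with limma adjusted p of 0.417 and 0.631. On the lower side the calcium channel gene *Orai1* had a ratio of 0.864 and its activator *Stim1* 0.895, with overlapping groups (adjusted p = 0.667 and 0.662).

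Of 25 other lipid transfer proteins tested, 1 had an unadjusted p under 0.05, and the median log2 change was -0.01. That gene was *Gramd1c*, of the Aster family of cholesterol carriers, with a ratio of 1.26 and no overlap (limma adjusted p = 0.317). *Col4a3bp*, the ceramide carrier CERT, had a ratio of 1.25 and no overlap (0.473). *Stard3*, a late endosomal cholesterol carrier, had 0.890 and no overlap, and the phosphatidylinositol carrier *Pitpnm1* 0.832 with overlap (0.510 and 0.574).

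The enzymes that make and clear oxysterols, the lipids that gave the family its name, held the lowest ratio of the 6 lists. Of 12 tested, 4 had an unadjusted p under 0.05 on the lower side and 1 on the higher side, and the median log2 change was -0.16. *Cyp39a1*, the 7-alpha-hydroxylase of 24-hydroxycholesterol, had values of 1.30, 1.29 and 1.57 in WT replicates 1 to 3 and 0.383, 0.516 and 0.679 in KO replicates 1 to 3, without overlap (limma adjusted p = 0.134). *Hsd11b1*, which reduces glucocorticoids and 7-ketocholesterol, had a ratio of 0.752 and no overlap (0.187). *Ebp*, a sterol isomerase of cholesterol synthesis, had a ratio of 1.17 with overlap (0.525).

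The sensors of oxysterols and sterols had 1 of 12 tested genes at an unadjusted p under 0.05 and a median log2 change of 0.06. It was *Mbtps2*, the protease that releases SREBP transcription factors, at a ratio of 1.36 without overlap (limma adjusted p = 0.367). *Smo*, the Hedgehog pathway receptor that binds sterols, had 1.30, the LXR beta gene *Nr1h2* 0.942 and *Rora* 0.954, all with overlap (adjusted p = 0.576, 0.770 and 0.900).

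Targets of LXR, the nuclear receptor that oxysterols activate, had higher and lower means side by side. Of 14 tested, 3 had an unadjusted p under 0.05 on the higher and 2 on the lower side, with a median log2 change of 0.03. *Pltp*, the phospholipid transfer protein of plasma, had values of 0.849, 0.542 and 0.585 in WT replicates 1 to 3 and 1.47, 1.47 and 1.48 in KO replicates 1 to 3, a ratio of 2.24 without overlap (limma adjusted p = 0.126). *Lpl*, the lipoprotein lipase, had a ratio of 1.60 (0.291), and the sterol export genes *Abcg5* and *Abcg8* had 0.737 and 0.749 (0.214 and 0.218), all without overlap.

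Among genes for making or converting the phosphatidylserine and phosphoinositides ORPs carry, 14 were tested and 2 had an unadjusted p under 0.05, both lower. *Ptdss1*, a phosphatidylserine synthase, had a ratio of 0.827 and *Pip5k1c*, a kinase acting on PI4P, 0.814, both without overlap (limma adjusted p = 0.343 and 0.346). *Ttc7b*, a scaffold of the plasma membrane PI4P kinase, had 1.07 and *Pisd* 1.05, both with overlap (0.741 and 0.787).

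**Figure D3:**
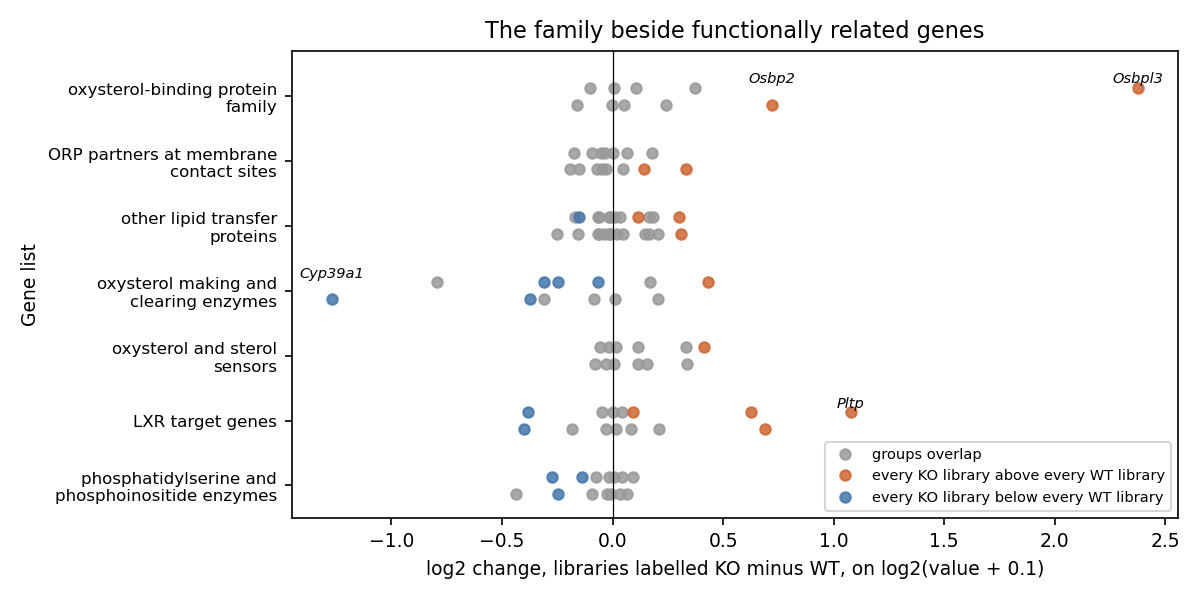
Log2 change, libraries labelled KO minus WT, on the log2(value + 0.1) scale (horizontal axis), for 10 family genes and the tested genes of 6 related lists (rows), each point 1 gene. Orange points have every KO library above every WT library and blue points every one below; *Osbpl3* at 2.37 lies beyond *Pltp* at 1.08 and *Cyp39a1* at -1.27.

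*Osbpl3* lies 12.7 megabases from *Akr1d1* on the same chromosome. The 6 other tested genes within 1 megabase of *Osbpl3* all had overlapping groups. The nearest of them were *Mpp6*, with a ratio of 0.969, and *Cycs*, the cytochrome c gene, with 1.10. Of 141 other tested genes within 20 megabases, 14.9% had groups that did not overlap in either direction, against 19.1% of 11775 genes elsewhere in the genome. The median size of the log2 change was 0.13 in both. Of the 21 genes without overlap in this window, *Akr1d1* among them, most were higher in the libraries labelled KO. Over all rows tested the lower side held slightly more, 10.1% against 8.86%. The lean within the window was not tested, and nothing about the region is read from it. In 5 of the 141 the log2 change exceeded 1 in size, as it did in 2.61% of all rows tested. The 5th and 95th percentiles of the log2 change over all rows tested were -0.40 and 0.60, so large changes leaned upward there too. All 5 genes had a higher mean in the libraries labelled KO, some of them with overlapping groups. Most of them held a 0 in a WT library, where the size depends on the pseudocount. Among them was the noncoding RNA gene *Hotairm1*, listed at 0 in all 3 WT libraries and at 1.26, 4.81 and 0.936 in KO replicates 1 to 3.

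**Figure D4:**
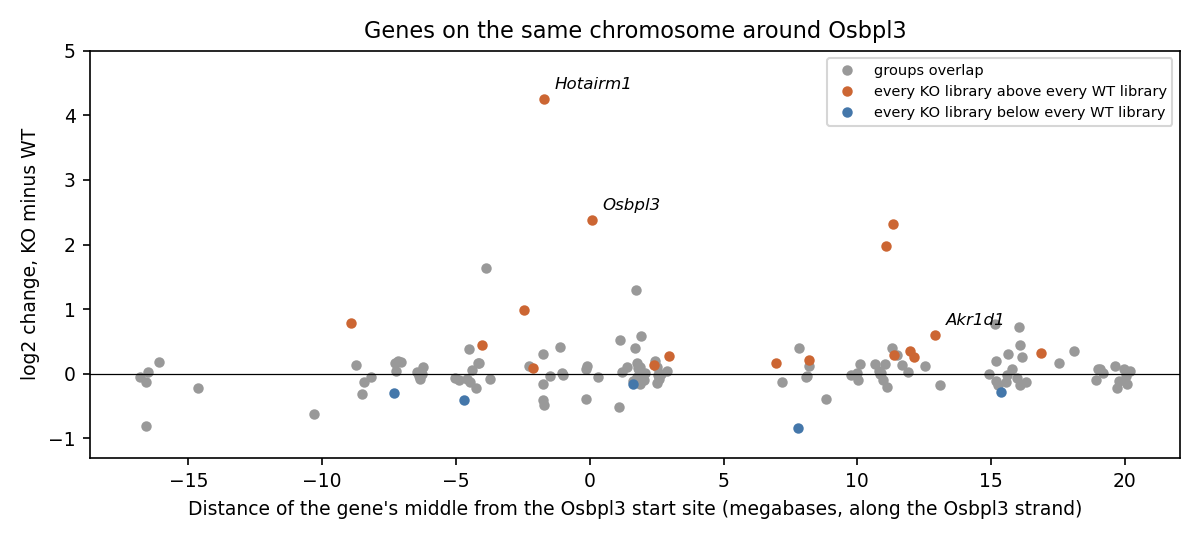
Log2 change, libraries labelled KO minus WT (vertical axis), of tested genes within 20 megabases of *Osbpl3*. The horizontal axis is the distance of each gene's middle from the *Osbpl3* start site, in megabases along its own strand. The limits of 1 and 20 megabases are gaps between genes, so some points lie slightly further out on this axis. *Osbpl3* stands at 2.37, the 6 genes within 1 megabase of it are grey (groups overlap) and *Akr1d1* lies to the right at 0.60; the height of *Hotairm1*, listed at 0 in WT, depends on the pseudocount.

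The genes whose pattern was most like that of *Osbpl3* were ranked by Pearson's r of log2(value + 0.1) over the 6 libraries, among 11614 other named genes above 0 in every library. The *Osbpl3* values fall into 2 separate groups, so any gene with such a gap ranks high, and no p is given. The first 5 were *Slc22a3* (r = 0.998), a carrier of organic cations, *Dntt* (0.995), the template-free DNA polymerase of lymphocyte precursors, *Elovl5* (0.995), an elongase of polyunsaturated fatty acids, *Snx29* (0.990), a sorting nexin, and *Gtse1* (0.990), of the mitotic cell cycle. Their ratios of means were 2.24, 4.04, 1.89, 1.20 and 2.15. *Dntt* had values of 0.585, 0.421 and 0.260 in WT replicates 1 to 3 and 1.79, 1.78 and 1.54 in KO replicates 1 to 3. All 5 had WT replicate 3 as their lowest library, as *Osbpl3* did, which a ranking by likeness to *Osbpl3* favours. Of the family, *Osbp2* came highest, at rank 176 (r = 0.912). The other listed members had r between -0.59 for *Osbpl2* and 0.38 for *Osbpl8*.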

How the data were processed

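Polyadenylated RNA of 3 WT and 3 KO liver libraries was compared. The submitters' processing notes list STAR 2.10, R 4.0.5 and mm10 with no role. The sources used here do not give the counter, the use of strand or the scaling of libraries. The deposited values read as a linear ratio to each row's mean over 7 libraries: no value exceeds 7 and 99 of 12792 rows sum to 7 within 1e-09. This reading is from the values. It removes differences in abundance between genes. Of the rows, 189 had no value, and 110 names stood in more than 1 row, none of them a family gene.

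Log2(value + 0.1) was tested with limma 3.58.1 in R 4.3.3, with no mean trend. The 12578 rows above 0 in 3 or more libraries entered, and p was adjusted over all of them by Benjamini-Hochberg, with a threshold of 0.05. The fit was tested on simulated data. Reads per library are unknown. In rows with a 0, 26.7% to 71.4% of ratios between libraries matched whole reads within 0.008 (log2) at the best shift of a pair. The median share over all shifts tried was 2.15% to 5.71%. Best shifts disagreed between pairs, so no depths are given. They were -0.161 for WT replicates 1 and 2, 0.073 for WT replicate 1 and KO replicate 2, and -0.759 for WT replicate 2 and KO replicate 2. Positions come from GENCODE M21 (mm10) and start regions from RefSeq (GRCm38); 9 of the 10 family genes with a row had one that could be used. Overlapping genes can share reads. The members, the related lists and the markers were chosen with earlier results of these data known. Named genes were the family, per related list the 2 tested genes of smallest p on each side, and the 5 genes most like *Osbpl3*; 1 of these genes is not reported here. Beyond the rule, *Apoa1*, *Ttr*, *Hnf4a*, *Gpc3*, *Top2a*, *Hotairm1*, *Mpp6* and *Cycs* were named. Alternatives were another scaling, pseudocount, filter or trend, a replicate block, and each library left out.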

Additional observations from a re-analysis of the deposited data

How the results depend on the processing

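*Osbpl3* was higher in the libraries labelled KO under all 14 alternatives, with a log2 change of 1.17 at a pseudocount of 1, 2.76 with no pseudocount and only rows above 0 in all libraries, and 2.08 to 2.58 with 1 library left out; a pseudocount shrinks the change of low values by construction. Under median centring and quantile normalization, which can reorder the libraries within a gene, the number of listed members without overlap was 1, as with the values as deposited. At a pseudocount of 1 the log2 change of *Osbp2* was 0.40. The number of listed members without overlap was 1 to 3 with 1 library left out, the added ones being *Osbpl8* without WT replicate 3 and *Osbpl2* and *Osbpl11* without KO replicate 3, where fewer libraries have to separate. The median log2 change of the members ran from -0.02 to 0.09. Signs of *Osbp*, *Osbpl1a*, *Osbpl9* and *Osbpl7* differed between alternatives. The count of genes passing over the whole table, and of those higher in the libraries labelled KO, was 1 at a pseudocount of 1, 0 with no pseudocount and only rows above 0 in all libraries, 0 with a mean trend and 1 to 4 with 1 library left out. With the replicate block it was 1. Same-numbered libraries deviated together with correlations of -0.02, -0.002 and 0.09, and differently numbered ones with -0.08 to 0.08. With 3 libraries per group, such values cannot show whether the numbers pair them. No related gene passed under any alternative, and *Rora*, at -0.06, changed sign without WT replicate 3 or KO replicate 2 (-0.158 to 0.051 over the left-out libraries). The log2 change of *Akr1d1* stayed between 0.33 and 0.66. With the number of reads unknown, the counting error of low values such as *Osbpl3* in WT cannot be given.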
